A study of Mus musculus with 9 samples.

Results

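Small RNAs of the atrial appendages of old mice that had taken curcumin were compared with those of young mice. The comparison used 6 of the 9 libraries of the series, chosen by their labelled age and treatment. The 3 young libraries came from C57BL/6 mice of 5 months without curcumin. The 3 treated libraries came from C57BL/6 mice of 18 months that were given curcumin, a compound of turmeric root, at 100 mg/kg every day in non-fat skim milk from 12 months of age on. The remaining 3 libraries, from untreated C57BL/6 mice of 18 months, are set beside the comparison as values, and they share the young libraries as their reference. Young and treated old mice differ in both age and curcumin, so these cannot be told apart in a difference between them. The labels name no sham feeding with milk and do not say whether a library holds 1 mouse or several, so p-values measure only the spread between these libraries. PANDORA-seq was used, a small RNA method that removes methyl groups with AlkB and repairs RNA ends with a kinase before adapters are ligated, so that modified tRNA fragments are read as well. In bulk tissue, fewer cells of a type and less RNA per cell cannot be told apart.

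Fragments of tRNA, called tsRNAs, arise when nucleases cut tRNAs in the anticodon loop or in other loops, and the heart, rich in mitochondria, holds many from the tRNAs of the mitochondrial genome. Every mature tRNA receives the bases CCA at its 3′ end after transcription, which are needed to carry an amino acid. A read with this end therefore comes from a tRNA whose 3′ end had received CCA. A miRNA is cut from a hairpin precursor and finds its targets mainly through its seed, so miRNAs of 1 seed share many targets.

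The mitochondrial tRNA genes below gave the fragments on which much of the comparison turned. They are printed as the genes are annotated by GENCODE on mm10, without the added CCA, with the anticodon in capitals. The genes mt-Tl2 (chrM:11671-11741, plus strand), mt-Te (chrM:14071-14139, minus), mt-Tt (chrM:15289-15355, plus), mt-Ty (chrM:5260-5326, minus) and mt-Tp (chrM:15356-15422, minus) each hold 1 tRNA and code for no protein. The files give the part of a tRNA that a read belonged to (its 5′ end, its 3′ end with or without the added CCA, or any other part) and not its bases.
mt Leu-TAG: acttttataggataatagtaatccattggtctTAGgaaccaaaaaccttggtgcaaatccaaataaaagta
mt Glu-TTC: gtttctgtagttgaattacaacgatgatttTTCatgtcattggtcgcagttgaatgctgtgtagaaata
mt Thr-TGT: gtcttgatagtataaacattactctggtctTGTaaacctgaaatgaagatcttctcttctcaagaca
mt Tyr-GTA: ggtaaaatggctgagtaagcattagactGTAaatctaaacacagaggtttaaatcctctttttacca
mt Pro-TGG: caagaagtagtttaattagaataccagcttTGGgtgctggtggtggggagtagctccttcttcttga

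The miRNAs below are those described at most length, since several share a seed. Their mature arms from RefSeq (GRCm38.p6) are printed with the seed, bases 2 to 8, in capitals. miR-148a, miR-148b and miR-152 share the seed CAGUGCA, and miR-29a, miR-29b and miR-29c share AGCACCA. The files count reads per precursor and do not say which arm they came from.
miR-148a-3p: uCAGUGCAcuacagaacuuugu
miR-148b-3p: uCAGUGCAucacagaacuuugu
miR-152-3p: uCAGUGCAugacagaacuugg
miR-29a-3p: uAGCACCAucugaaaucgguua
miR-29b-3p: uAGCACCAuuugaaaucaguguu
miR-29c-3p: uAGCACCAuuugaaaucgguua
miR-101a-3p: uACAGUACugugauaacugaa
miR-541-5p: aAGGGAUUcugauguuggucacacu

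The 6 libraries held 12899427 to 19707803 clean reads, of which 85.4% to 87.3% fell in the 996 annotated features of the files. The libraries numbered 1 stood apart from the others of their group in the percent of reads matched to the genome. The genome matched 73.7% of the clean reads in young replicate 1, against 67.0% and 65.0% in young replicates 2 and 3. In the treated libraries the corresponding values were 72.7%, 67.8% and 68.3%. miRNAs took 4.66% of clean reads in young replicate 1, and 1.34% and 1.88% in replicates 2 and 3. In treated replicates 1 to 3 they took 3.21%, 4.22% and 3.53%, so replicate 1 was the lowest there. The results below are therefore also given without the 3 libraries numbered 1 where they bear on a value, and those fits were chosen after their values had been seen. The tissue label was checked against marker miRNAs. miR-1a of striated muscle and miR-126a of endothelium were abundant in every library, at 2484 CPM or more for miR-1a-1 and at 4178 CPM or more for miR-126a. The cardiac miR-208a gave at least 199 reads in each library, while miR-208b and miR-499 of cardiac muscle were at or near 0, with at most 2 and 5 reads.

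No small RNA passed the test between treated old and young atria. Of 520 tested features (209 miRNAs, 277 tsRNAs and 34 others), 0 had an adjusted p under 0.05 in edgeR's quasi-likelihood fit over all 9 libraries, which is 0% of those tested. The smallest adjusted p was 0.669, and 19 features had an unadjusted p under 0.05. limma-voom called 0 as well, with 17 unadjusted. DESeq2 called 1 feature (0.192% of those tested, 30 unadjusted), the 5′ end of nuclear tRNA-His-GTG, with an adjusted p of 0.0327. Old against young, which shares the young libraries, also had 0 calls.

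A description below the level of the test was made by asking which features kept all 3 treated libraries outside the range of all 3 young ones. In CPM (counts scaled to library size by edgeR's TMM method), 54 features lay apart (10.4% of 520), 25 higher (4.81%) and 29 lower (5.58%). When counts were scaled by clean reads instead, 38 lay higher (7.31%) and 11 lower (2.12%). The choice of scale matters here: clean-read totals moved the median difference over all features from -0.01 to 0.19 on the log2 scale, and 342 rather than 257 of 520 were higher in treated mice. On both scales, 15 features lay higher and 8 lower. The 8 were the CCA ends of mitochondrial Leu-TAG, Glu-TTC and Thr-TGT, the 5′ ends of mitochondrial Pro-TGG and Asn-GTT, the 5′ end of nuclear His-GTG, Y3 RNA and miR-541. These features were picked by their values in this comparison, so their separation is a description and not a test.

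The CCA ends of mitochondrial tRNAs formed the largest group among the lower features. In CPM, 9 of 22 lay below every young library (40.9%, beside 5.58% of all features), and when scaled by clean reads 4 of 22 did (18.2%, beside 2.12%). The fitted log2 difference was negative for 20 of 22, with a median of -0.56, where all 520 features had -0.01. With clean-read totals 4 of 22 were positive and the median was -0.35, and with each class scaled alone it was -0.43. The median was -0.52 without the libraries numbered 1, and 4 of the 22 passed the test in that fit (beside 5.78% of all features called lower). With tsRNAs also fitted alone the median was -0.16, with 8 of 22 positive, and 2 passed as lower (beside 4.57%). Summed, the 22 took 1.92%, 1.63% and 1.91% of clean reads in young and 1.28%, 1.99% and 1.45% in treated libraries, which overlapped. The means differed by -0.25 points, and by -0.05 points without the libraries numbered 1.

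The CCA end of mitochondrial Leu-TAG, a tRNA that reads leucine codons, was the most abundant of these 9. It stood at 3835, 4993 and 6165 CPM in young replicates 1 to 3 and at 1921, 2474 and 2559 CPM in the treated libraries. The untreated old libraries had 3444, 5713 and 5325 CPM. All treated libraries lay below all young and all untreated old ones. The log2 difference from young was -1.11 (SE 0.27; edgeR, adjusted p = 0.669), a 0.464-fold mean, while untreated old mice differed from young by -0.05. Without the libraries numbered 1 it was -1.14 (adjusted p = 0.00136), and -0.78 (adjusted p = 0.0253) with tsRNAs also fitted alone. A fit of all 9 libraries with a term for those numbered 1 called this feature and no other, with a log2 difference of -1.10 and an adjusted p of 0.0486.

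Mitochondrial Glu-TTC gave the same picture with less spread. Its CCA end stood at 2222, 2960 and 3375 CPM in young, 2210, 3559 and 3321 CPM in untreated old and 1552, 1488 and 1627 CPM in treated old libraries. The treated libraries lay within a narrow range below all others. The log2 difference was -0.87 (SE 0.25; edgeR, adjusted p = 0.867), and without the libraries numbered 1 it was -1.02 (adjusted p = 0.00338). That call was lost when tsRNAs were fitted alone (adjusted p = 0.0778). The CCA end of Thr-TGT had 428, 419 and 413 CPM in young, 392, 488 and 567 CPM in untreated old and 290, 254 and 274 CPM in treated old libraries. It separated the treated libraries from the other 6, with a log2 difference of -0.62 (SE 0.22; edgeR, adjusted p = 0.942), and stayed above the threshold without the libraries numbered 1 (adjusted p = 0.086). The CCA ends of Asp-GTC, His-GTG, Lys-TTT, Leu-TAA, Phe-GAA and Ser-TGA were also below all young libraries in CPM but overlapped them when scaled by clean reads.

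**Figure D1:**
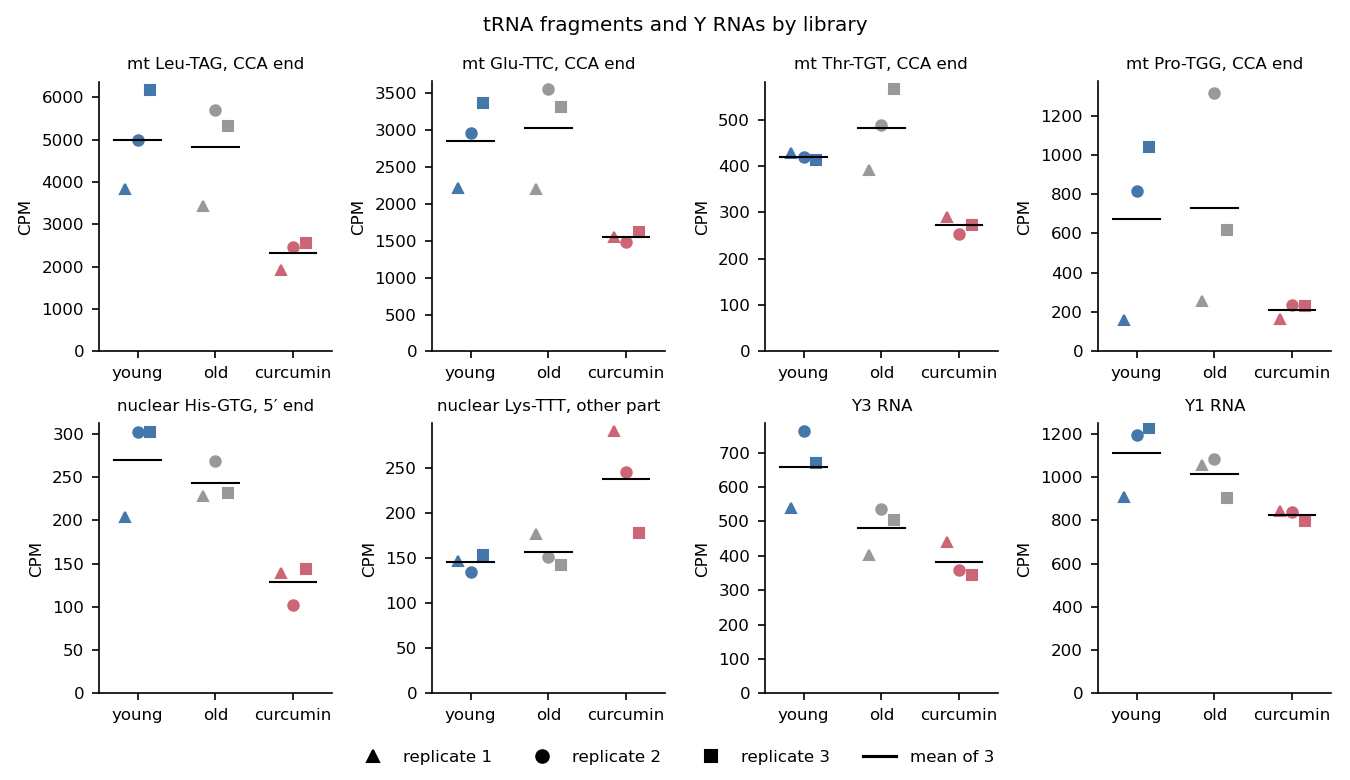
CPM (vertical axes, from 0) of 6 tRNA fragments and the 2 Y RNAs in the 3 young, 3 untreated old and 3 curcumin-treated old libraries; symbols mark the replicate number and lines the mean of 3. The treated libraries lie below all young ones for the CCA ends of mitochondrial Leu-TAG, Glu-TTC and Thr-TGT, for the 5′ end of His-GTG and for both Y RNAs, and above them for the other part of Lys-TTT. For the CCA end of Pro-TGG the treated libraries lie above young replicate 1 and below young replicates 2 and 3.

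A measure that needs no scaling between libraries is the percent of a tRNA species' own reads that carried the CCA end. It was lower on average in treated mice for 17 of 22 mitochondrial species, with a median difference of -2.56 percentage points, and lay below all young libraries for 3 (13.6%). Over all 280 parts of nuclear and mitochondrial species with at least 100 reads in each library, 10 (3.57%) lay lower without overlap and 17 (6.07%) higher. Mitochondrial Tyr-GTA had the clearest separation: 36.1%, 33.7% and 34.0% of its reads ended in CCA in young, 39.7%, 37.98% and 51.2% in untreated old, and 18.8%, 20.4% and 21.6% in treated old libraries. Its reads from the 5′ end moved the other way, with 39.1%, 42.6% and 39.7% in young, 28.1%, 32.8% and 24.3% in untreated old and 54.9%, 48.6% and 43.0% in treated old libraries. Both parts of Tyr-GTA thus kept the treated libraries outside the range of the other 6, including those numbered 1, the 5′ end by a small gap. The parts of a species add up to all its reads, so a lower share of CCA ends raises the shares of other parts. The 5′ end is therefore no separate observation. In CPM Tyr-GTA was less clear. Its CCA end, at 153, 126 and 91.1 in young and 101, 79.8 and 59.7 in treated libraries, overlapped between the groups.

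For Glu-TTC, 25.2%, 32.5% and 33.7% of reads ended in CCA in young and 12.3%, 23.8% and 20.7% in treated libraries, again without overlap. For Leu-TAG the percentages were 57.6%, 75.8% and 77.9% in young and 40.9%, 63.2% and 62.7% in treated libraries. Replicate 1 was the lowest of each group, so the groups overlapped, but the treated library differed from the young library of its number by -16.7, -12.7 and -15.2 points. For Pro-TGG the share of CCA ends overlapped, at 7.75%, 17.4% and 21.3% in young and 9.74%, 17.1% and 13.4% in treated libraries. The 5′ ends of mitochondrial Met-CAT, Gln-TTG and Leu-TAA took higher shares of their species in all treated than in all young libraries. The 5′ end of Met-CAT took 31.7%, 28.4% and 29.4% in young and 35.7%, 38.98% and 35.2% in treated libraries.

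**Figure D2:**
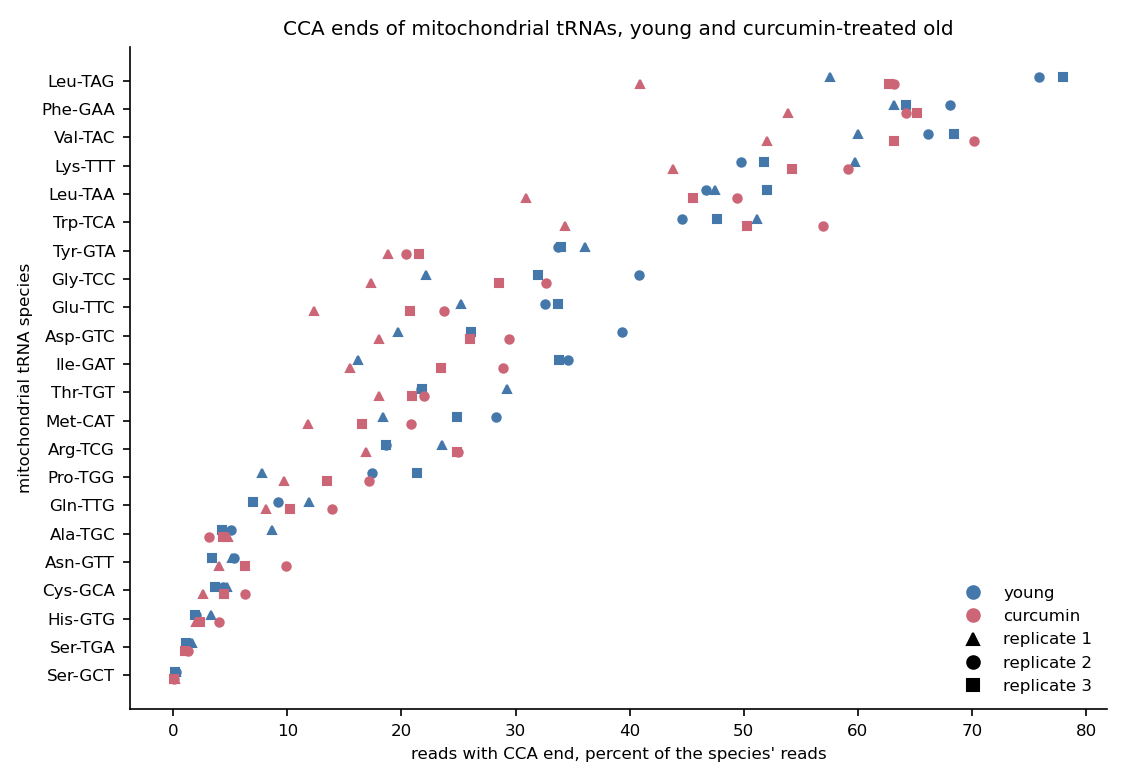
Percent of the reads of each of the 22 mitochondrial tRNA species that carried the CCA end (horizontal axis, percent), for young and treated libraries; symbols mark the replicate number and species are ordered by their mean. The treated libraries of Tyr-GTA, at 18.8% to 21.6%, lie left of the young ones at 33.7% to 36.1%, and most other species overlap.

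Among further mitochondrial fragments, those of Pro-TGG were called in 3 of their 4 parts without the libraries numbered 1. The 5′ end stood at 1393, 2536 and 2441 CPM in young, 470, 3055 and 1933 CPM in untreated old and 846, 694 and 953 CPM in treated old libraries. Treated libraries lay below all young ones, with a log2 difference of -1.35 (SE 0.55; edgeR, adjusted p = 0.942), and without the libraries numbered 1 of -1.59 (adjusted p = 0.000301). The CCA end of the same tRNA had 161, 817 and 1039 CPM in young and 165, 235 and 229 CPM in treated libraries. Here young replicate 1 lay below all treated libraries, so the ranges of the groups overlapped. The log2 difference of -1.68 (SE 0.69) became -1.99 (adjusted p = 0.000106) without the libraries numbered 1. The other part of Asn-GTT had 394, 647 and 761 CPM in young and 400, 290 and 275 CPM in treated libraries, a log2 difference of -0.90 (SE 0.33; edgeR, adjusted p = 0.942). The other part of His-GTG, among the 5 most abundant tsRNAs, had 5874, 11480 and 12497 CPM in young and 6741, 4007 and 5511 CPM in treated libraries. In both, treated replicate 1 was close to young replicate 1, and replicates 2 and 3 lay apart. The 3 other parts named for Asn-GTT, His-GTG and Pro-TGG and the 5′ end of Lys-TTT also passed without the libraries numbered 1, all lower.

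Mitochondrial Ser-GCT, the source of the most abundant mitochondrial fragment, went the other way. Its 5′ end had 31837, 15540 and 15966 CPM in young, 27291, 11842 and 13378 CPM in untreated old and 26967, 25814 and 23041 CPM in treated old libraries. The treated libraries lay between young replicate 1 and the other 2, with a log2 difference of 0.26 (SE 0.38; edgeR, adjusted p = 0.942) and of 0.64 without the libraries numbered 1, where it passed the test. Its other part passed there too, at 0.78 (adjusted p = 0.0386). The remaining abundant mitochondrial fragment, the CCA end of Val-TAC, did not follow the other CCA ends: it had 5272, 7591 and 8377 CPM in young and 5437, 9387 and 7618 CPM in treated libraries. Its groups overlapped throughout, and its log2 difference was 0.08 (SE 0.27).

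Nuclear tRNA fragments that kept all 6 libraries apart were mostly higher in treated mice. Those called without the libraries numbered 1 were mostly lower with all classes fitted together, but mostly higher with tsRNAs fitted alone. Below all young libraries on both scales lay the 5′ end of His-GTG, a tRNA that carries an extra guanosine at its 5′ end. It stood at 204, 302 and 301 CPM in young, 228, 268 and 231 CPM in untreated old and 139, 102 and 143 CPM in treated old libraries. All treated libraries lay below the other 6, with a log2 difference of -1.07 (SE 0.27; edgeR, adjusted p = 0.669), where untreated old mice differed from young by -0.15. It was -1.29 (adjusted p = 0.00232) without the libraries numbered 1, and -0.93 (adjusted p = 0.00474) with tsRNAs fitted alone.

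Of 48 tested nuclear 5′ ends, 6 lay above all young libraries in CPM (12.5%, beside 4.81% of all features) and 14 when scaled by clean reads (29.2%, beside 7.31%). Of 50 other parts, 4 did so in CPM and 13 when scaled by clean reads. The 5′ ends had a median log2 difference of 0.26 with 28 positive, and without the libraries numbered 1 of 0.02 with 25 positive, 1 called higher and 2 lower. The other parts had 0.03 with 28 positive, and without those libraries -0.30 with 13 positive, 1 called higher and 4 lower. With tsRNAs also fitted alone, the medians were 0.39 and 0.06, with 7 and 5 called higher and 1 called lower in each. The 5′ end of Gly-ACC had 10.7, 17.0 and 13.6 CPM in young and 21.1, 26.5 and 22.7 CPM in treated libraries. Initiator methionine tRNA, which starts translation, had both its 5′ end and its other part above all young libraries on both scales. Its other part had 98.2, 94.9 and 108 CPM in young, 71.8, 187 and 88.6 CPM in untreated old and 163, 164 and 185 CPM in treated old libraries. The log2 difference was 0.76 (SE 0.37; edgeR, adjusted p = 0.942), and it passed without the libraries numbered 1 only with tsRNAs fitted alone (1.14, adjusted p = 0.00106). The other part of Lys-TTT had 147, 135 and 153 CPM in young and 291, 245 and 178 CPM in treated libraries, and overlapped when scaled by clean reads. The 5′ end of Arg-CCT separated the groups as well, but at 0.0921 to 0.579 CPM in young and 0.785 to 1.77 CPM in treated libraries it rested on few reads. The 2 most abundant tsRNAs, the other parts of Gly-GCC and Gly-CCC, overlapped between the groups, with log2 differences of 0.04 (SE 0.31) and 0.03 (SE 0.36).

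The CCA ends of nuclear tRNAs were lower on average but not separated. The log2 difference was negative for 40 of 49, with a median of -0.35, and 0 of 49 lay below all young libraries in CPM. Scaled by clean reads, 1 of 49 did so, that of Asp-GTC. With clean-read totals 23 were positive and the median was -0.03, and without young replicate 2 it was 0.08 with 31 positive. Without the libraries numbered 1, 9 of 49 passed the test as lower (beside 5.78% of all features), of which Glu-CTC had 488 and 433 CPM in young and 180 and 216 CPM in treated replicates 2 and 3. In replicate 1 it had 144 CPM in young and 133 CPM in treated mice. With tsRNAs fitted alone, 3 of the 49 passed as lower (beside 4.57%). The 3′ ends without CCA were positive for 34 of 38 with a median of 0.60, and this direction rested on treated replicate 1. Their summed level was 787 CPM in that library, 107 and 150 CPM in treated replicates 2 and 3 and 204 to 275 CPM in young ones. Without treated replicate 1 the median was -0.72, with 2 of 39 positive.

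Y RNAs, short RNAs bound by the protein Ro60, lay below the young range in treated mice in CPM. The gene for Y3 (Rny3, chr6:47781624-47781725, plus strand, 102 bases, mm10) has the sequence printed here, because this RNA separated the groups on both scales. Mouse chromosomes hold other copies that resemble Y RNA genes, and reads of such copies cannot be told from those of Rny3.
Y3 RNA: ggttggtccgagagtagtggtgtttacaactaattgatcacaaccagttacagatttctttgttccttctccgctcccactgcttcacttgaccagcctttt
Y3 stood at 539, 764 and 671 CPM in young, 403, 536 and 504 CPM in untreated old and 441, 358 and 346 CPM in treated old libraries. All treated libraries lay below all young ones, and so did the untreated old ones. The log2 difference of treated from young was -0.78 (SE 0.24; edgeR, adjusted p = 0.867) and that of untreated old from young was -0.45 (SE 0.24). The first was -1.02 (adjusted p = 0.00679) without the libraries numbered 1. Y1 had 908, 1197 and 1227 CPM in young and 845, 837 and 796 CPM in treated libraries, which did not overlap in CPM but did when scaled by clean reads. As a share of clean reads, Y RNA took 0.144% ± 0.00813 in young, 0.121% ± 0.00544 in untreated old and 0.115% ± 0.0147 in treated old mice (SD, n = 3). All treated libraries were below all young ones, with the smallest p that this design allows (exact two-sided permutation test, p = 0.1, adjusted p = 1 over 20 shares). The share of unannotated reads reached the same p in the same test. It was 14.4%, 13.6% and 14.6% in young and 12.7%, 13.1% and 13.4% in treated libraries.

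Fitted differences of miRNAs spread to both sides of 0. The median log2 difference of the 209 miRNAs was 0.07. In CPM, 12 lay above all young libraries (5.74%, beside 4.81% of all features) and 8 below (3.83%, beside 5.58%). Scaled by clean reads these were 7 (3.35%, beside 7.31%) and 1 (0.478%, beside 2.12%), and the 1 was miR-541. This miRNA of the imprinted Dlk1-Dio3 region (Mir541, chr12:109742409-109742498, plus strand) had 11.6, 6.63 and 9.12 CPM in young, 4.98, 4.91 and 4.02 CPM in untreated old and 3.90, 1.79 and 4.06 CPM in treated old libraries. Young libraries were the highest 3 of the 9. The log2 difference of treated from young was -1.49 (SE 0.44; edgeR, adjusted p = 0.867), and that of untreated old from young was -0.97 (SE 0.43). Without the libraries numbered 1 the first passed, at -1.44 (adjusted p = 0.0455), and at -1.99 (adjusted p = 0.00169) with miRNAs fitted alone.

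miR-148a was the abundant miRNA that separated the groups upwards on both scales. It had 283, 76.9 and 77.0 CPM in young, 316, 50.9 and 130 CPM in untreated old and 394, 390 and 349 CPM in treated old libraries. Every treated library was above the other 6, although young replicate 1 came near. The log2 difference was 1.37 (SE 0.67; edgeR, adjusted p = 0.942), and 2.27 (adjusted p = 0.000106) without the libraries numbered 1. miR-152 and miR-148b, which share its seed, had 84.0 and 13.2 CPM in young replicate 1, beside 82.0 and 10.3 CPM in treated replicate 1. In replicates 2 and 3, miR-152 had 29.2 and 44.7 CPM in young and 111 and 110 CPM in treated libraries. miR-148b had 2.49 and 3.65 CPM in young and 12.3 and 10.3 CPM in treated libraries there. All 3 miRNAs of this seed passed the test without the libraries numbered 1, also with miRNAs fitted alone (log2 differences of 1.71, 1.06 and 1.35 for miR-148a, miR-152 and miR-148b, adjusted p of 4.46e-05, 0.0012 and 0.0279).

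Several other abundant miRNAs were also highest in replicate 1 among the young libraries. miR-143 of smooth muscle had 478, 215 and 245 CPM in young, 486, 165 and 291 CPM in untreated old and 510, 628 and 597 CPM in treated old libraries. miR-143 separated the groups in CPM by a small gap at replicate 1, and not when scaled by clean reads. The other of the 2 smooth muscle precursors, miR-145a, overlapped between the groups and had a negative log2 difference. It was positive without the libraries numbered 1 and negative with miRNAs also fitted alone. miR-29a, which targets collagen transcripts, had 741, 204 and 198 CPM in young and 596, 657 and 537 CPM in treated libraries. Young replicate 1 was the highest of the 6, so the log2 difference of 0.65 (SE 0.57) became 1.57 (adjusted p = 0.00107) without the libraries numbered 1. miR-101a had 241, 48.5 and 50.7 CPM in young and 191, 229 and 157 CPM in treated libraries, with 0.76 (SE 0.70) and, without those libraries, 1.97 (adjusted p = 0.000553). miR-1a, read from 2 loci that share reads, had 8314, 2943 and 4236 CPM at miR-1a-1 in young and 5797, 8544 and 8420 CPM in treated libraries. It was lower in treated than in young replicate 1 and higher in the other 2 pairs. miR-21a, a miRNA raised in many fibrotic tissues, had 145, 23.8 and 21.7 CPM in young and 161, 121 and 100 CPM in treated libraries. Its call without the libraries numbered 1 (2.29, adjusted p = 0.00223) was lost with miRNAs fitted alone (adjusted p = 0.0695).

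**Figure D3:**
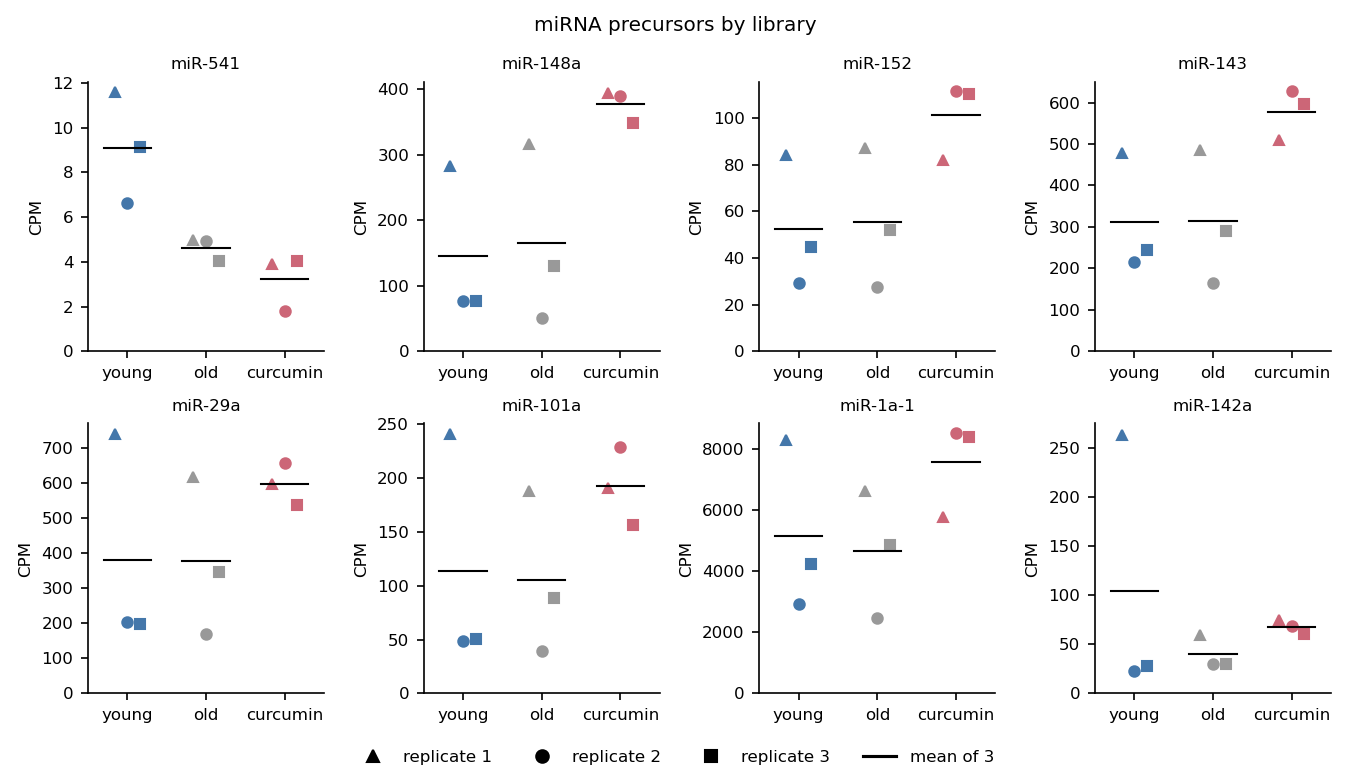
CPM (vertical axes, from 0) of 8 miRNA precursors in the 3 young, 3 untreated old and 3 curcumin-treated old libraries; symbols mark the replicate number and lines the mean of 3. Replicate 1 (triangles) is the highest young library in every panel, and for miR-152, miR-29a, miR-101a, miR-1a-1 and miR-142a it lies within or above the treated range.

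Without the 3 libraries numbered 1, edgeR called 67 of 519 features between treated old and young mice (12.9%), 37 higher (7.13%) and 30 lower (5.78%), with 162 at an unadjusted p under 0.05. In the same fit old against young had 0 calls, with the same young libraries. Of the miRNAs 33 were called higher and 2 lower, the latter miR-541 and miR-423. Of the tsRNAs 4 were called higher and 24 lower, and Y3 RNA, 28S rRNA and 2 Rfam classes were called lower as well. The split depended on scale: with clean-read totals 26 were called higher and 4 lower. With miRNAs and tsRNAs each fitted alone, 56 of 481 passed (11.6%), 34 higher (7.07%; 18 miRNAs and 16 tsRNAs) and 22 lower (4.57%; 10 miRNAs and 12 tsRNAs). Both fits called 18 miRNAs higher and 12 tsRNAs lower, which is 54.5% and 50% of those of the common fit.

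The pair numbered 1 went against most of these calls, but not in the called features alone. In that pair 79.4% of all miRNAs were lower and 82.8% of all tsRNAs higher in treated mice. Of the 33 miRNAs called higher from replicates 2 and 3, 4 were higher in treated than in young replicate 1, and the median log2 ratio of that pair was -0.40. Over all 204 miRNAs 42 were higher, with the same median. Of the 24 tsRNAs called lower, 6 were lower in treated than in young replicate 1, with a median log2 ratio of 0.23, beside 47 of all 274 tsRNAs and a median of 0.61. The calls thus describe replicates 2 and 3, and what set the libraries numbered 1 apart was not tested.

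**Figure D4:**
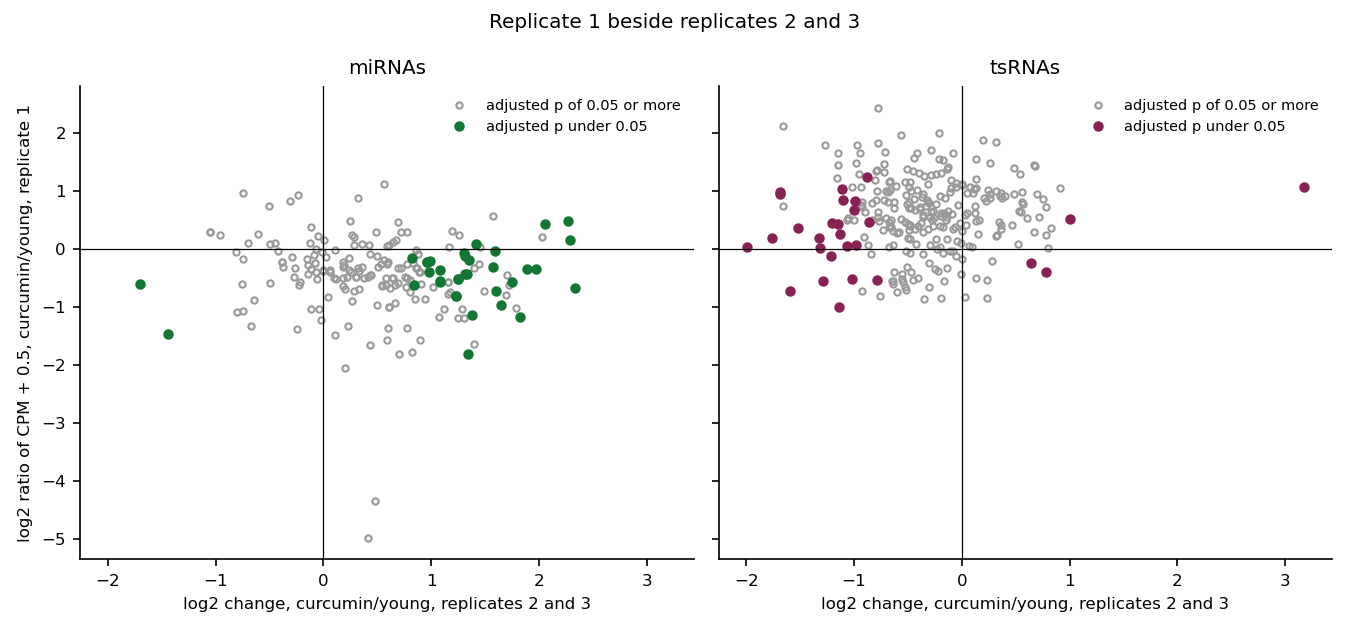
Log2 ratio of treated over young replicate 1 (vertical axis, CPM + 0.5) against the log2 difference fitted from replicates 2 and 3 (horizontal axis), for miRNAs and tsRNAs; filled points had an adjusted p under 0.05 in the fit of replicates 2 and 3. Of the 33 filled miRNAs to the right of 0, 4 lie above 0, and of the 24 filled tsRNAs to the left, 6 lie below 0.

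Groups of miRNAs known from muscle, fibrosis and ageing were described by counts. Of 17 tested fibrosis-linked precursors, among them miR-29, miR-26, miR-101 and miR-30, all had a positive log2 difference, with a median of 0.38 beside 0.07 for all miRNAs and 0 calls. The 17 hold 2 loci each of miR-26a, miR-29b, miR-30c, miR-133a and miR-199a, which share reads. With each class scaled alone 15 of 17 were positive and the median was 0.22. In the fit without the libraries numbered 1, 10 of 17 passed as higher, both loci of miR-26a and of miR-29b included. This stood beside 33 of all 210 miRNAs and 7.13% of all features. With miRNAs fitted alone, 6 of 16 passed, beside 18 of all 206 miRNAs and 7.07% of all features. The 4 miR-29 precursors, of which the 2 of miR-29b share reads, had a median of 0.27, of -0.0019 without young replicate 2 and of 1.40 without the libraries numbered 1. All 4 passed in the latter fit, also with miRNAs fitted alone.

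The 10 senescence-linked precursors, a list that also holds miR-29, had a median of 0.35 with 8 positive. It was 1.11 without young replicate 1, 0.16 without young replicate 2 and 0.23 without young replicate 3. Dropping all libraries numbered 1 gave 1.23, with 10 of 10 positive and 5 called higher, and 0.69 with miRNAs fitted alone, where 5 were called as well. In the first of these fits all miRNAs had a median of 0.55, with 158 of 210 positive and 33 called higher, beside 7.13% of all features. Fitted alone, all miRNAs had 0.0043, with 103 of 206 positive and 18 called higher, beside 7.07% of all features. The senescence-linked miR-146b lay above all young libraries on both scales, with 3.33, 1.29 and 2.13 CPM in young and 5.2, 4.48 and 5.68 CPM in treated libraries. miR-34a and miR-22 separated in CPM only. miR-34a, which the tumour suppressor p53 switches on, had 12.3, 7.65 and 12.2 CPM in young, 11.9, 5.15 and 11.1 CPM in untreated old and 12.9, 13.7 and 16.5 CPM in treated old libraries. The 7 inflammation-linked precursors were all positive with a median of 0.74, but with each class scaled alone 4 of 8 were, with 0.16. Their median was 0.57 without the libraries numbered 1, with 2 of 7 called higher, and 0.03 with 1 called when miRNAs were fitted alone. Of 6 miR-30 precursors 6 were positive (median 0.36), with 4 when each class was scaled alone. It was 0.79 with 3 called higher without the libraries numbered 1, and 0.24 with 0 called when miRNAs were fitted alone. Of 12 let-7 precursors 5 were positive (median -0.09), and 10 with clean-read totals. The let-7 median changed sign without the libraries numbered 1, to 0.25 with 7 positive and 1 called higher, and was -0.27 with 3 positive and 0 called when miRNAs were fitted alone. Of 6 tested muscle precursors 5 were positive, with a median of 0.30, or 0.04 with each class scaled alone. It was 0.64 without the libraries numbered 1, and 0.10 with miRNAs fitted alone, and the 2 loci of miR-1a were called higher in both fits.

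Precursors of the Dlk1-Dio3 cluster, which are expressed from the maternal chromosome, had negative log2 differences in 10 of 10. Their median was -0.22 between treated old and young and -0.60 between untreated old and young mice, which share the young libraries. Summed, they stood at 64.2, 24.5 and 39.8 CPM in young, 43.2, 19.8 and 18.5 CPM in untreated old and 40.4, 23.8 and 30.8 CPM in treated old libraries. Treated replicates 1 and 3 lay within the young range and treated replicate 2 just below it. Without young replicate 1 the median was 0.06, with 5 of 10 positive, and without all libraries numbered 1 it was -0.12, with 3 of 9 positive. In the latter fit all miRNAs had a median of 0.55, and 1 of the 9, miR-541, was called lower, beside 2 of all 210 miRNAs. With miRNAs also fitted alone the median was -0.59, with 1 of 8 positive and 1 called lower, beside 10 of all 206 miRNAs. miR-127, the most abundant precursor of the cluster, had 16.5, 8.48 and 13.1 CPM in young and 12.9, 8.07 and 11.8 CPM in treated libraries, a log2 difference of -0.22 (SE 0.47).

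**Figure D5:**
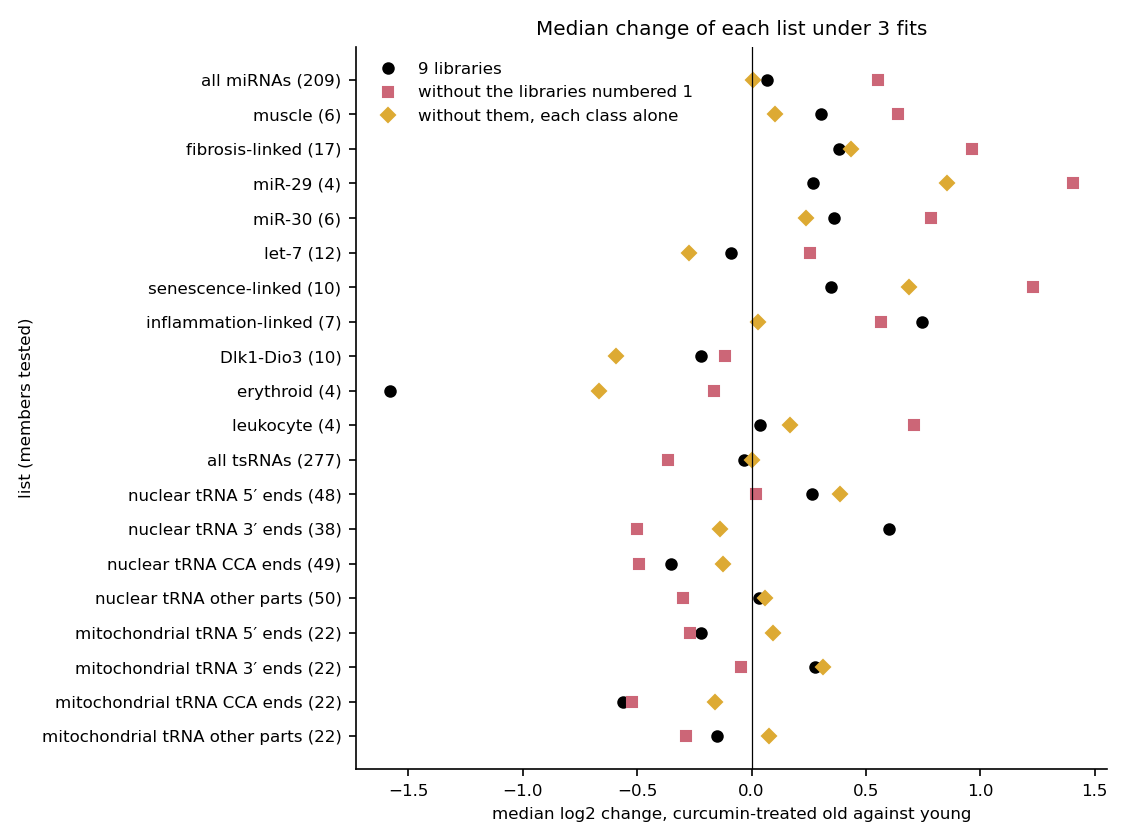
Median log2 difference of treated old from young libraries (horizontal axis) for each list of miRNAs or tRNA parts, with the number of tested members in brackets; circles are the fit of 9 libraries, squares the fit without the libraries numbered 1, and diamonds that fit with miRNAs and tsRNAs each alone. CCA ends of mitochondrial tRNAs are negative in all 3 fits (-0.56, -0.52 and -0.16), miR-29 is positive in all 3, and the 3′ ends of nuclear tRNAs change sign.

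Summed over each list, markers of blood cells were highest in young replicate 1. Singly, miR-486a, miR-486b, miR-150 and miR-155 were not highest in that library. The 4 erythroid precursors summed to 281 CPM there, to 55.0 and 99.3 CPM in young replicates 2 and 3, and to 25.4, 55.9 and 58.1 CPM in treated libraries. All 4 had a negative log2 difference, with a median of -1.58. Without the libraries numbered 1 the median was -0.16 with 2 of 4 negative, and -0.67 with 4 of 4 negative when miRNAs were also fitted alone. In that last fit miR-486a and miR-486b, which share reads, passed as lower (-1.33, adjusted p = 0.0012, and -1.27, adjusted p = 0.00169). miR-486b had 18.5, 22.9 and 36.7 CPM in young and 8.63, 17.2 and 18.3 CPM in treated libraries, which overlapped when scaled by clean reads. The red cell miRNA miR-451a had 167, 4.33 and 16.5 CPM in young and 4.85, 13.6 and 14.1 CPM in treated libraries. The 4 leukocyte precursors summed to 350, 53.0 and 62.8 CPM in young and to 126, 125 and 108 CPM in treated libraries. Their median difference was 0.04, and 0.71 without the libraries numbered 1, where all miRNAs had a median of 0.55. In that fit 1 of 4 passed as higher, beside 33 of all 210 miRNAs. The called precursor was the most abundant member, miR-142a, which had 263, 22.6 and 28.4 CPM in young and 74.5, 68.6 and 60.2 CPM in treated libraries. It lay higher in treated replicates 2 and 3 than in the young ones (log2 difference 1.34, adjusted p = 0.00564 without the libraries numbered 1) and lower in replicate 1. The part of blood cells in the miRNA differences was not tested. Of 3 tested epithelial precursors all were positive, and the most abundant, miR-203, had 26.7, 10.97 and 16.5 CPM in young and 23.5, 40.1 and 29.8 CPM in treated libraries, while miR-141, miR-205 and miR-96 had at most 3 reads in any library. Of 5 neuronal precursors 3 were positive and of 2 liver precursors 1, and miR-124 of neurons had at most 0.33 reads.

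Fragments of rRNA were compared last. The 45S precursor lay above all young libraries on both scales, with 20795, 22502 and 22519 CPM in young, 26112, 19632 and 30685 CPM in untreated old and 26604, 34555 and 34588 CPM in treated old libraries. Its log2 difference was 0.54 (SE 0.23; edgeR, adjusted p = 0.942). The abundant 28S rRNA had 136834, 347019 and 238515 CPM in young and 139774, 147428 and 216919 CPM in treated libraries, which overlapped. As shares of clean reads, rRNA took 40.1% ± 6.14 in young and 37.7% ± 3.94 in treated mice, tsRNAs took 23.7% ± 5.88 and 26.2% ± 6.78, and miRNAs took 2.63% ± 1.78 and 3.65% ± 0.519 (SD, n = 3). None of the 20 shares passed (exact two-sided permutation tests, adjusted p = 1 each), and 3 libraries against 3 cannot give a p under 0.1. For miRNAs the difference within replicate numbers was -1.45 points in pair 1 and 2.88 and 1.64 points in pairs 2 and 3.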

How the data were processed

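Clean reads were annotated by the authors, and the deposited values are expected counts per annotation: a read matching several annotations was divided among them, and nothing was normalized. The submitters' processing notes name cutadapt 2.5 and mm10; the annotation tool is not given in the sources used here. Per the labels' protocols, inserts of 15 to 45 nucleotides were read over 75 cycles. Genome-matched and unmatched reads were summed per feature, and counts were rounded. Shares carry 95% Wilson intervals of at most 0.0268 points to either side (counting error only).

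edgeR 4.0.16 fitted all 9 libraries together by quasi-likelihood (R 4.3.3; filterByExpr, TMM, group as term), with Benjamini-Hochberg adjustment over 520 features and a threshold of 0.05. Alternatives were DESeq2 1.42.0, limma-voom (limma 3.58.1), other scalings, filters and library subsets. The fits were tested on simulated data. Members, lists and tests were chosen with earlier results of these data known.

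The naming rule took the 12 features with the smallest p, the 5 most abundant tsRNAs and 4 most abundant miRNAs, the most abundant member of each list, and the 10 with the smallest p without the libraries numbered 1. Other features were named after their values were seen. miRNA precursors of 1 mature sequence share reads. All 12 mature arms looked for were found in RefSeq. Replicate numbers were compared by the correlation of same-numbered libraries' deviations from their group means, which was 0.33, 0.19 and 0.28 between young and treated libraries. Numbers 1 and 3 matched best both ways and number 2 did not: young replicate 2 correlated best with treated replicate 3, and treated replicate 2 with young replicate 3. The main fit had no pairing term, and the replicate block was an alternative.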

Additional observations from a re-analysis of the deposited data

How the results depend on the processing

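The 0 calls of the 9-library fit stayed at 0 with RLE scaling, clean-read totals, limma-voom, other filters, 6 libraries, genome-matched reads, each class alone, the replicate block (0 calls; it changed no call) and each library left out. DESeq2 gave 1 call and a term for the libraries numbered 1 gave 1. Without those libraries there were 67 calls, 56 with each class alone, 30 with clean-read totals, 70 with DESeq2, 51 with limma-voom and 136 from 4 libraries. The cause of these shifts was not tested. Of the 41 named features, 23 passed without those libraries and 18 with each class alone as well. Over all features, 67 of 519 (12.9%) and 56 of 481 (11.6%) passed in these fits. The naming rule took some features for their small p without those libraries, so their passes were fixed by selection. The counts of 23 and 18 therefore describe the named set and test nothing.

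Values that changed sign were as follows, all log2 differences unless given as shares in percentage points. With each class alone miR-125b-1 was -0.10. With genome-matched reads the other parts of Gly-CCC and Gly-GCC were -0.0181 and -0.0119, and the share of mitochondrial CCA ends was 0.0774. With limma-voom miR-142a was 0.14, the 3′ end of Arg-CCG -0.0591, and the other parts of Gly-CCC and Gly-GCC -0.0304 and -0.0078. With the replicate block miR-142a was 0.19, the 3′ end of mitochondrial Glu-TTC -0.0474, and the other parts of Gly-CCC and Gly-GCC -0.0741 and -0.0144; the term for the libraries numbered 1 gave 0.19, -0.048, -0.071 and -0.015. With feature reads as denominator the share of piRNA was -0.0108.

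Without the libraries numbered 1, miR-128-1 was 0.23, miR-142a 1.34, miR-451a 0.42, the 3′ ends of mitochondrial Glu-TTC and of Arg-CCG -0.72 and -0.98, the CCA end of Gln-CTG -0.14, and the other parts of Gly-CCC and Gly-GCC -0.39 and -0.20. The shares of Ensembl classes, mitochondrial rRNA, mitochondrial 3′ ends, nuclear 3′ ends and nuclear CCA ends were 0.237, 0.095, -0.00595, -0.00325 and -0.0188. With each class alone as well, miR-125b-1 was -0.11, miR-142a 0.80, the 3′ ends of mitochondrial Glu-TTC and Arg-CCG -0.37 and -0.62, the other part of Gly-CCC -0.0257 and the 5′ end of Gly-GCC 0.14.

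Leaving out 1 library at a time gave these ranges: Gly-GCC other part -0.23 to 0.15, Gly-CCC other part -0.31 to 0.12, mitochondrial Val-TAC CCA end -0.14 to 0.28, miR-125b-1 -0.0713 to 0.41, miR-451a -2.996 to 0.0358, miR-142a -1.03 to 1.36, miR-128-1 -0.78 to 0.18, Gly-GCC 5′ end -1.02 to 0.43, Arg-CCG 3′ end -1.02 to 1.03, Gln-CTG CCA end -0.22 to 0.30, and mitochondrial Glu-TTC 3′ end -0.84 to 0.88. The shares ranged over -5.43 to 0.712 (rRNA), -5.30 to 0.978 (cytoplasmic rRNA), -0.268 to 0.0721 (mitochondrial rRNA), -1.34 to 5.83 (tsRNA), -1.03 to 4.58 (nuclear tRNA), -0.0832 to 0.246 (nuclear 5′ ends), -0.00794 to 0.0251 (nuclear 3′ ends), -0.0443 to 0.0481 (nuclear CCA ends), -0.970 to 4.36 (nuclear other parts), -0.630 to 1.25 (mitochondrial tRNA), -0.0487 to 0.0891 (mitochondrial 3′ ends), -0.479 to 0.115 (mitochondrial other parts), -1.13 to 1.48 (piRNA) and -0.174 to 0.133 (Ensembl classes). Precision was limited by the spread between 3 libraries rather than by reads, with a common biological coefficient of variation of 0.468.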
